A study of Mus musculus with 81 samples.

Results

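The mitochondrial ribosomal protein genes examined here were the protein-coding genes of the Gencode annotation whose symbols begin with Mrpl or Mrps followed by a number, which gave 78 genes (49 Mrpl and 29 Mrps) of the 57010 genes counted. They were read in 81 RNA-seq libraries from 28 mice. Each library held CA1 pyramidal neurons (CA1 PNs), CA3 pyramidal neurons (CA3 PNs) or dentate gyrus granule cells (DGCs) that were cut by laser capture from Nissl-stained sections of the rostral hippocampus. The mice were Ts65Dn (Ts), a mouse model of Down syndrome with a small additional chromosome that holds extra copies of parts of mouse chromosomes 16 and 17, and their disomic (2N) controls, bred from Ts65Dn dams and C57Bl/6J Eicher × C3H/HeSnJ F1 sires and taken at about 6 months of age (6 MO). Dams ate chow with 1.1 g/kg choline chloride (normal, ChN) or 5.0 g/kg (supplemented, ChP) until weaning, after which every pup ate the control diet. The study states that the normal-diet mice were male. The extra chromosome is inherited from the dam and driven by no promoter or Cre, and each mouse gave at most 1 library of each population.

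Of the mice, 6 were 2N and 6 were Ts on the normal diet, and 7 were 2N and 9 were Ts on the supplemented diet. In CA1 PNs the normal diet had 6 2N and 5 Ts libraries and the supplemented diet 7 and 9. In CA3 PNs these were 6 and 6, and 7 and 7. In DGCs they were 6 and 6, and 7 and 9. Libraries held 625250 to 4744045 counts on the normal diet and 358357 to 2559183 on the supplemented diet, of which the 78 genes took between 0.128% and 0.164%. That left a member with a median count per library between 5 and 48, and 69 members had a count in every library. The median standard error (SE) of a log2 fold change (LFC) was 0.32 for the 24 members with a median count under 15, 0.21 for the 44 members between 15 and 30 and 0.16 for the 10 members above, so single members of low count were measured loosely.

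Some libraries stood apart. In 6 CA1 libraries the summed CPM (counts scaled to a library's total) of 6 markers of the neighbouring CA2 field exceeded those of 6 CA1 markers. These were the 2N mouse 17-21 (82.4 CPM of the CA1 and 1768 of the CA2 markers) and the Ts mouse 16-357 (577 and 1233) on the normal diet, and on the supplemented diet the 2N mice 15-336 (188 and 1773) and 16-90 (775 and 1185) and the Ts mice 15-199 (453 and 1109) and 16-272 (54.2 and 1280). In the CA1 libraries of 17-21, 15-336, 15-199 and 16-272 the CA3 markers (609, 563, 516 and 828 CPM) also exceeded the CA1 markers. In those of 16-357 and 16-90 the CA3 markers, at 370 and 314 CPM, stayed below them. The median CA1 library held 46.6 CPM of the CA3 markers. The CA1 libraries of mice 15-140 (431 CPM), 15-198 (422), 15-334 (541) and 17-154 (514) also held CA2 markers well above the CA1 median of 117 CPM. Their CA1 markers were higher still, so they stayed in the fits without libraries rich in CA2 markers. Across all CA1 libraries the CA1 markers summed to a median of 1466 CPM, against 31.0 in CA3 PNs and 38.1 in DGCs. The CA3 markers summed to 1075 CPM in the median CA3 library and the granule cell markers to 2267 CPM in the median DGC library. Libraries of CA3 PNs held more of the oligodendrocyte markers (median 324 CPM) than those of CA1 PNs (155) and DGCs (184). The CA1 library of the 2N mouse 17-154 carried triplicated genes at the level of Ts libraries, and the CA3 library of mouse 15-145 was labelled Ts while its other libraries were labelled 2N. It was counted as 2N here. Fewer cells of a type and less RNA per cell cannot be told apart in such libraries.

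Mitochondrial ribosomes translate the proteins encoded in mitochondrial DNA, all of them subunits of the oxidative phosphorylation (OXPHOS) complexes. Their ribosomal RNAs are encoded in mitochondrial DNA, while all of their proteins are encoded in the nucleus, made in the cytosol and imported. The large subunit holds the peptidyl transferase centre and is anchored to the inner membrane, and the small subunit binds messenger RNA and decodes it. Of the 78 members, 51 encode large subunit proteins, among them Mrps18a and Mrps30, whose names come from an older assignment, and 26 encode small subunit proteins. The remaining member, Mrps36, encodes a protein that belongs to the 2-oxoglutarate dehydrogenase complex. The list used here assigned a counterpart in bacterial ribosomes to 48 of the ribosomal members, and counted 29 as found in mitochondrial ribosomes only. This assignment, in which Mrpl55 is among the 48, was not checked against protein sequences. Neurons depend heavily on OXPHOS, and inherited defects of mitochondrial ribosomal proteins affect the brain, heart and liver.

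The members are spread over the genome. Only Mrpl39 (ENSMUSG00000022889, chromosome 16, 84502276 to 84533793, minus strand, GRCm39) and Mrps6 (ENSMUSG00000039680, chromosome 16, 91854965 to 91909592, plus strand) lie in the triplicated segment of chromosome 16. Promoter windows of 300 bases (250 before and 50 after the start) were found for 69 members in RefSeq (GRCm38.p6). A match to CCGGAAG, the core bound by ETS factors such as GABP, lay on either strand in 25 of the 69 windows (36.2%), against 11.9% of the windows of 17491 protein-coding genes. A match to AAGATGG, the core bound by YY1, lay in 13 windows (18.8%, against 6.37%) and one to GCATGCGC, the core of the NRF1 site, in 8 windows (11.6%, against 3.60%). TATAAA lay in 4 member windows (5.80%, against 13.3%). Member windows held a median of 21 CpG dinucleotides, against 13, with a GC content of 58.3% against 56.3%. A match is a description of letters and not a bound site, and the ETS and YY1 letters, which can overlap at AAG, were counted separately. The windows below are given for the triplicated pair Mrpl39 and Mrps6, for Mrps33, which differed most between CA3 PNs and DGCs in the larger set of mice, and for Mrps11, whose window overlaps that of its head-to-head neighbour Mrpl46. Each is written 5′ to 3′ on the strand of its gene, with capitals marking a match to the NRF1, ETS or YY1 letters on either strand. The window of Mrps6 holds none of these letters.
Mrpl39 (chr16:84735195-84735494, minus strand, GRCm38.p6): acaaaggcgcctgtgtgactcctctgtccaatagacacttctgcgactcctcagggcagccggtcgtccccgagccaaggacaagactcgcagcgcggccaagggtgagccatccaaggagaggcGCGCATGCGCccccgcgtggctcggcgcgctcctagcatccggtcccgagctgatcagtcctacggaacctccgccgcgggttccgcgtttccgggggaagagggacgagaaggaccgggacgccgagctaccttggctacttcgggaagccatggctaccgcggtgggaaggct
Mrps6 (chr16:92058086-92058385, plus strand, GRCm38.p6): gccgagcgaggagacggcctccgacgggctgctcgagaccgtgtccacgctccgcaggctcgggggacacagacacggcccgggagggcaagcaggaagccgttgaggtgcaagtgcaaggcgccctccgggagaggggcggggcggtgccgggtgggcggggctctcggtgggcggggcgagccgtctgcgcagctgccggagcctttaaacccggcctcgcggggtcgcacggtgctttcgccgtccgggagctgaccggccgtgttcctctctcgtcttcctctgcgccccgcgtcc
Mrps33 (chr6:39810887-39811186, minus strand, GRCm38.p6): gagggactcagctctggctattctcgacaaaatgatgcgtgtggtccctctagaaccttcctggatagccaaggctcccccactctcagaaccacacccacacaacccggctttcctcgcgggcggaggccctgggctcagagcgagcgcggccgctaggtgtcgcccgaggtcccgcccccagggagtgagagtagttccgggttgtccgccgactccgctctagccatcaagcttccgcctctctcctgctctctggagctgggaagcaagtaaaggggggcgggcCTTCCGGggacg
Mrps11 (chr7:78782881-78783180, plus strand, GRCm38.p6): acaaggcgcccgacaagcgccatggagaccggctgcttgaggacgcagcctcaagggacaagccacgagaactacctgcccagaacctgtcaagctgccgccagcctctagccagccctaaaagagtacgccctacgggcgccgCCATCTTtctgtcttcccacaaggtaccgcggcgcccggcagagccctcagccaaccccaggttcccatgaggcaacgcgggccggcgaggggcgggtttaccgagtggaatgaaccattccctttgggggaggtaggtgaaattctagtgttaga

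The levels of members were compared with each other in TPM, a relative transcript level corrected for transcript length. The median TPM over the 81 libraries ran from 5.67 for Mrpl1 to 52.3 for Mrps21, a 9.22-fold range, and 62 members were within 2-fold of the median member. The highest after Mrps21 (a small subunit protein) were the large subunit genes Mrpl20 with 49.3 TPM, Mrpl52 with 40.7, Mrpl41 with 39.7 and Mrpl57 with 37.2. The lowest above Mrpl1 were Mrps30 with 6.01 TPM, Mrpl23 with 6.50, Mrps27 with 6.58 and Mrps18b with 7.15. The subunits differed little, with a median of 15.8 TPM for the 51 large subunit genes and 16.5 TPM for the 26 small subunit genes. Members with a bacterial counterpart had a median of 17.7 TPM and those found only in mitochondria one of 15.5 TPM. The median member reached 14.1 TPM in the CA1, 19.0 in the CA3 and 15.6 in the DGC libraries, and 59 members had their highest median TPM in CA3 PNs. TPM rest on another total than the CPM used for the tests, so these population medians were not tested. How many of all genes had their highest median TPM in CA3 PNs was not counted, so the 59 cannot be read as particular to the members. As a share of library counts the members went the other way. Their group medians were 0.140% to 0.141% in CA3 PNs, against 0.145% to 0.152% in CA1 PNs and 0.146% to 0.153% in DGCs. Mrps6 and Mrps33 lay far apart, with 33.8 and 18.9 TPM in CA3 PNs and 15.4 and 8.34 TPM in DGCs.

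**Figure D1:**
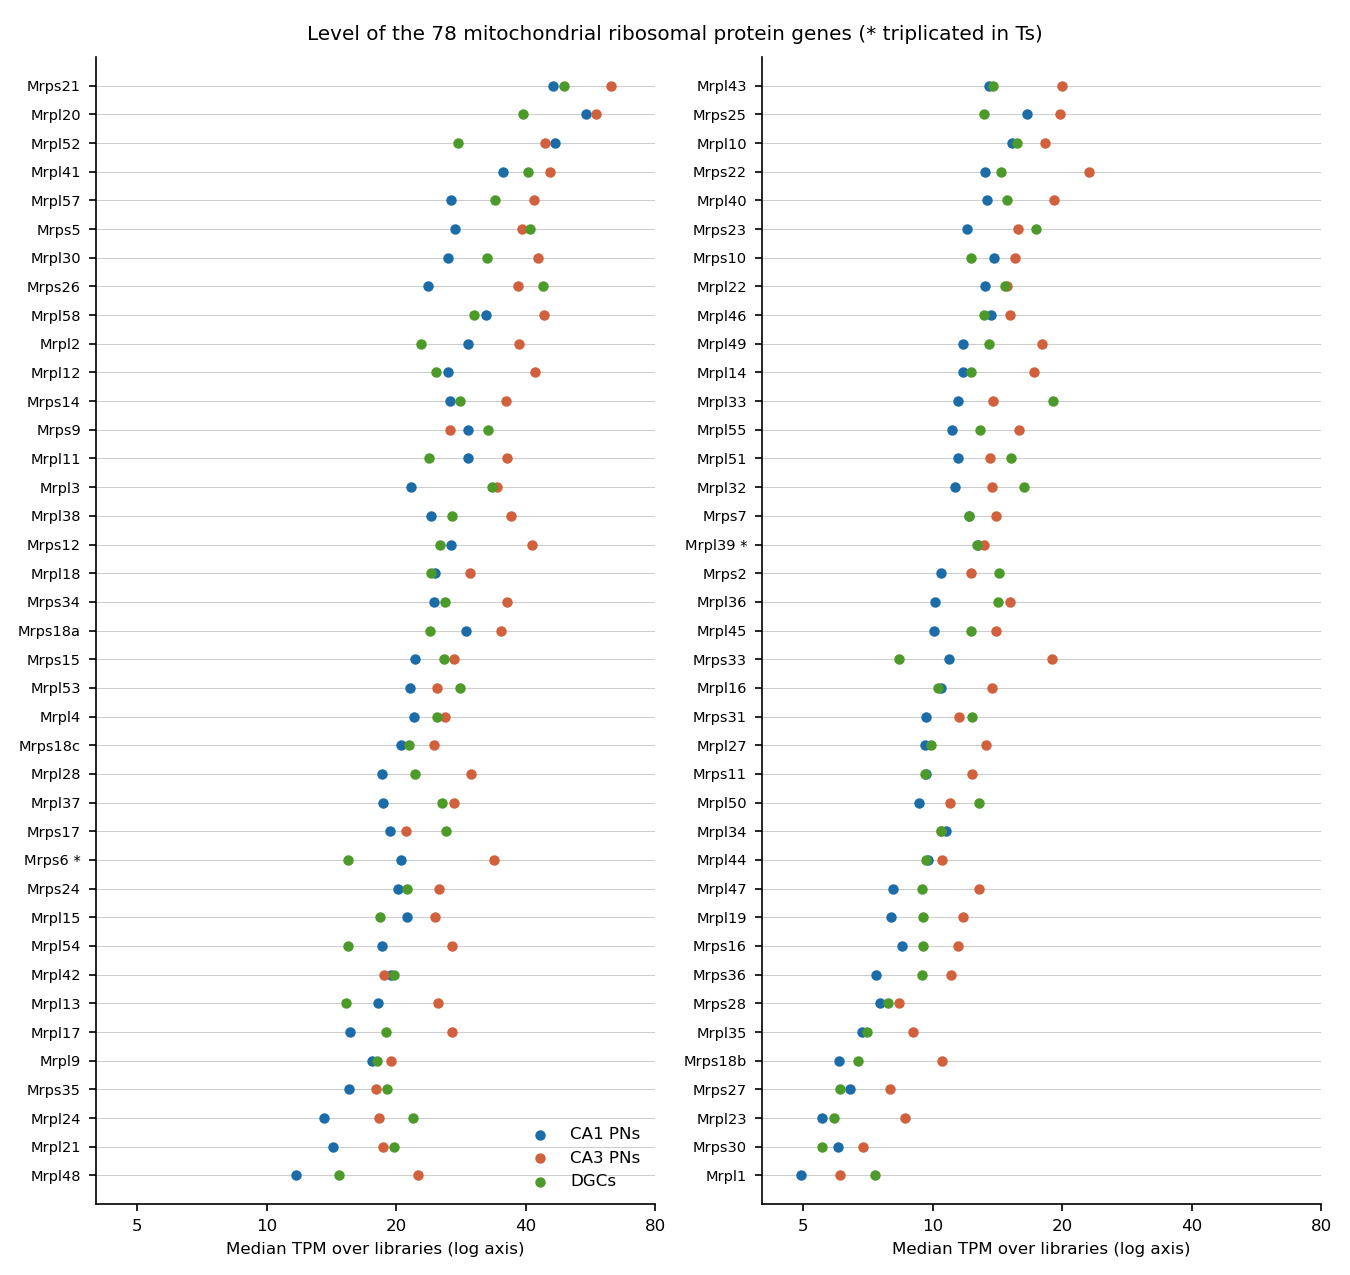
Median level of each of the 78 members over the libraries of each neuron population, in TPM on a log axis, with members ordered by their median over all libraries. Levels run from 5.67 TPM for Mrpl1 to 52.3 TPM for Mrps21 over all libraries, and 59 members have their highest median in CA3 PNs (orange). The same count over all genes was not made.

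Whether the extra gene copy was seen in the RNA of the triplicated members was the first question of the genotype comparison. Mrpl39, which encodes a large subunit protein without a bacterial counterpart, was higher on average in Ts than in 2N mice in each of the 3 populations on both diets. On the normal diet its LFC (Ts over 2N) was 0.35 ± 0.21 (SE) for CA1 PNs, 0.44 ± 0.17 for CA3 PNs and 0.25 ± 0.21 for DGCs. On the supplemented diet these were 0.39 ± 0.20, 0.42 ± 0.17 and 0.75 ± 0.22. Both comparisons in CA3 PNs and that in DGCs of supplemented mice had an unadjusted p under 0.05, the threshold by which the study defined differentially expressed genes (DEGs) and which is meant by "called" for genotype and diet from here on. None of the 6 passed adjustment over all genes tested (edgeR, adjusted p between 0.127 and 0.9999).

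In single libraries Mrpl39 stood as follows. In CA1 PNs of normal-diet mice the Ts libraries had 20.5, 29.0, 33.4, 36.9 and 39.6 CPM, and the 6 2N libraries ran from 17.2 to 31.7 CPM with a median of 24.3. The lowest Ts value was that of mouse 16-357 and the lowest 2N value that of mouse 17-21, both libraries rich in CA2 markers. Without 16-357 the LFC was 0.48 and was called. Over all 11 fits with a single library left out it ran from 0.26 to 0.48, and no other of them was called. For CA1 PNs of supplemented mice such fits gave an LFC from 0.31 to 0.49, called in 5 of 16. In CA3 PNs of normal-diet mice Ts ran from 23.4 to 32.1 CPM (median 27.2) and 2N from 14.7 to 23.7 CPM (median 19.9), so that 5 of the 6 2N libraries were below the lowest Ts library. In CA3 PNs of supplemented mice Ts ran from 20.0 to 31.8 CPM (median 28.4) and 2N from 15.9 to 26.2 (median 20.0). DGCs were less clear. On the normal diet Ts had 18.6 to 28.3 CPM (median 24.2) and 2N 10.5 to 28.5 CPM (median 21.5), and the groups overlapped throughout. In supplemented mice Ts DGCs had 15.4 to 36.9 CPM (median 25.7) and 2N DGCs 2.45 to 26.4 CPM (median 14.2). The lowest 2N values there, 2.45 and 4.30 CPM in mice 16-273 and 15-296, rest on 1 and 2 counts in the shallowest libraries of the series (358357 and 412003 counts).

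Mrps6, which encodes the mitochondrial relative of bacterial ribosomal protein S6 in the small subunit, had larger differences. Its LFC was 0.35 ± 0.25 for CA1 PNs, 0.59 ± 0.19 for CA3 PNs and 1.17 ± 0.31 for DGCs on the normal diet, and 0.89 ± 0.23, 0.68 ± 0.18 and 0.60 ± 0.31 on the supplemented diet. Mrps6 was called in 4 of the 6 comparisons, all but CA1 PNs on the normal diet and DGCs on the supplemented diet. In the latter it was called in 6 of 16 fits with 1 library left out, with LFC from 0.47 to 0.86. The highest was without the 2N mouse 16-273, whose 22.1 CPM rest on 9 counts in the shallowest library (358357 counts). The lowest adjusted p of any member in any genotype comparison was that of Mrps6 in normal-diet DGCs, 0.0592 (edgeR). In those DGCs the Ts libraries ran from 7.90 to 24.96 CPM (median 16.2) and the 2N libraries from 3.15 to 14.2 CPM (median 7.47), the latter on 4 to 11 counts each. In CA1 PNs of supplemented mice 8 of the 9 Ts libraries were above the highest 2N library (13.5 CPM). The exception was mouse 15-140 with 9.73 CPM. In CA3 PNs of supplemented mice all 7 Ts libraries (24.4 to 36.2 CPM, median 27.8) were above the 2N median of 18.9 CPM, with 2N values from 12.3 to 28.1. In normal-diet CA1 PNs the Ts libraries had 15.6, 17.6, 19.3, 19.7 and 21.5 CPM, against 8.76 to 21.1 CPM in 2N (median 13.8). The highest 2N library there was that of mouse 17-154. Without it and that of mouse 17-21 the LFC was 0.62 and was called. The library of 17-154 stood apart by its triplicated genes, to which Mrps6 belongs, so this fit cannot serve as support. With any single library left out the LFC ran from 0.25 to 0.53 and was not called. Mrps6 shares 404 of its exon bases (12.6%) with Slc5a3 on the same strand, also triplicated, and the software divided the reads of such stretches between genes by estimation. Mrps6 values were not whole counts in 13 libraries.

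**Figure D2:**
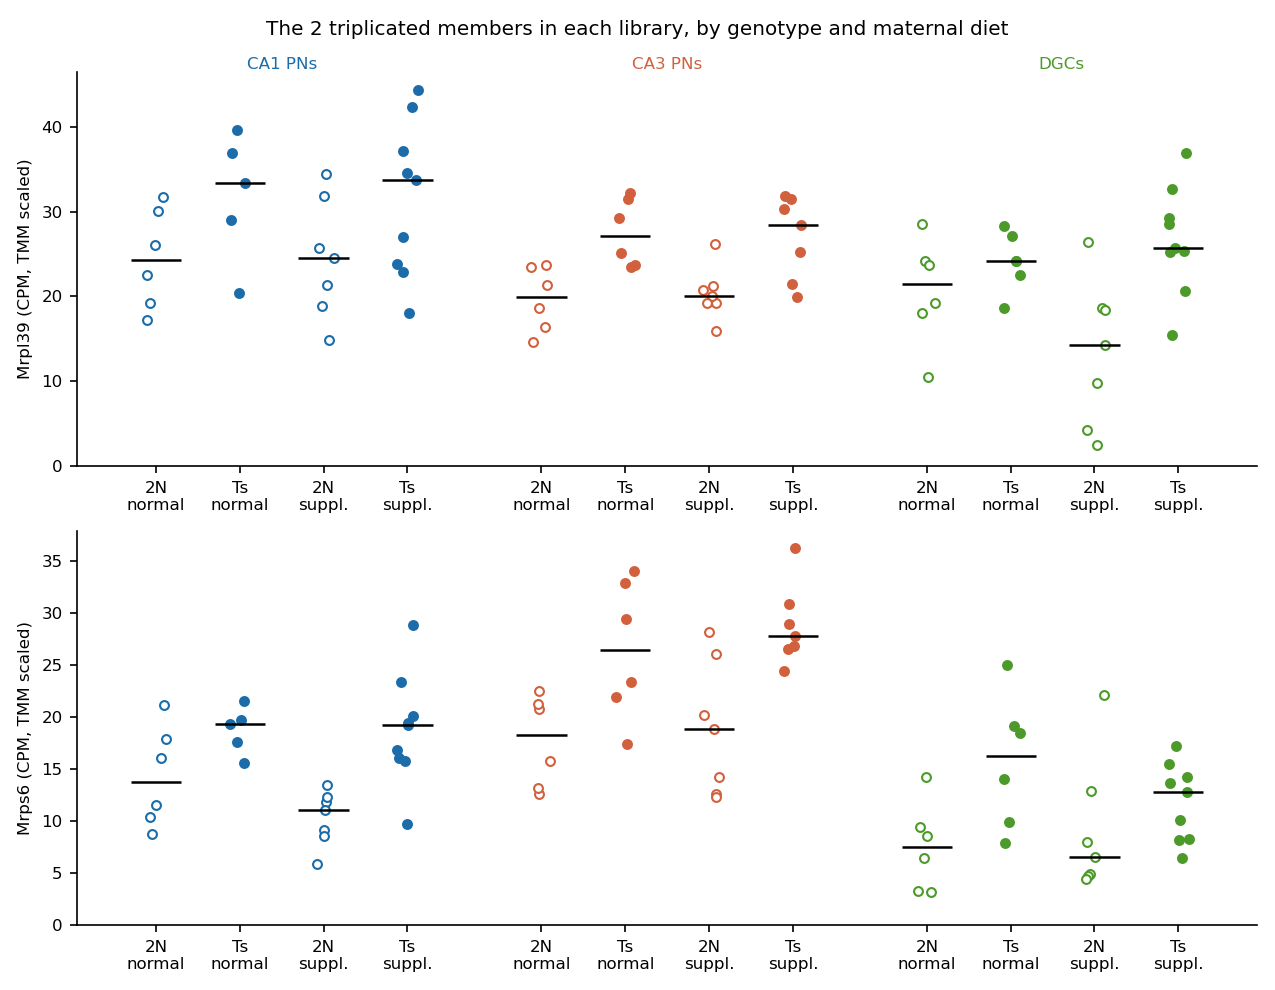
Level of Mrpl39 (top) and Mrps6 (bottom) in each library, in CPM scaled by the trimmed mean of M values (TMM), by population, genotype and maternal diet. Open circles are 2N and filled circles Ts libraries, and bars are medians, with every Ts median above the 2N median of the same population and diet.

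With 3 copies instead of 2 a proportional change would be 1.5-fold. The 95% intervals of the fitted fold change included 1.5 in all 6 comparisons for both genes. The intervals also included no change in 3 comparisons of Mrpl39 and 2 of Mrps6. Of the 42 Ts libraries, 36 had more Mrpl39 and 39 more Mrps6 than the median of the 2N libraries of the same population and diet, but the groups overlapped in every comparison of both genes. With the libraries of a mouse averaged into 1 value per mouse, a summary added after the data were seen, Mrpl39 was 1.42-fold and Mrps6 1.58-fold higher in the 15 Ts than in the 13 2N mice. All 15 Ts mice were above the 2N median for each gene, and a two-sided permutation test that shuffled genotype within diets gave a p of 1e-05 for each, the smallest that 100000 resamples can give. The genotype difference was not shown to depend on diet, with differences of LFC between diets from -0.56 ± 0.45 (Mrps6 in DGCs) to 0.55 ± 0.34 (Mrps6 in CA1 PNs) and adjusted p of 0.997 or more (edgeR). Between populations of normal-diet mice the Mrps6 LFC differed by -0.87 ± 0.41 (CA1 PNs minus DGCs), which was called but had an adjusted p of 0.999 (edgeR). The 2N mouse 17-154 had the highest 2N value in these CA1 PNs (21.1 CPM) and the lowest in DGCs (3.15 CPM on 4 counts). This test was not run without its libraries.

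Few of the 78 members were called by genotype. In CA1 PNs of normal-diet mice 0 members were called higher and 1 lower in Ts, where 1.78% and 1.99% of all 12286 genes tested were. DESeq2 called none there. In CA1 PNs of supplemented mice 4 were higher and 1 lower (all genes, 2.14% and 1.46%). In CA3 neurons 3 were higher and 3 lower on the normal diet (4.90% and 4.30%) and 3 higher and 0 lower on the supplemented diet (2.65% and 2.36%). DGCs showed 3 higher and 2 lower on the normal diet (4.59% and 3.91%) and 3 higher and 1 lower on the supplemented diet (3.93% and 3.66%). Of these 24 calls 7 were Mrpl39 or Mrps6. The 76 members outside the triplicated segment gave the other 17, 9 higher and 8 lower, which is 3.73% of the 456 member tests, against 6.28% of all genes on average over the 6 comparisons. No member passed adjustment over all genes with edgeR, DESeq2 or limma-voom. The median LFC of the 78 members lay between -0.07 and 0.03 in the 6 comparisons, and between 73 and 78 members were within 1.5-fold.

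The other calls were of 15 genes with no common direction. Mrpl35, a large subunit gene, was called higher in 2 comparisons, in CA1 PNs of supplemented mice (LFC 0.70 ± 0.32) and in DGCs of normal-diet mice (0.53 ± 0.25). Mrps33, a small subunit gene found in mitochondria only, was called in opposite directions, higher in CA1 PNs of supplemented mice (0.57 ± 0.23) and lower in DGCs of normal-diet mice (-0.94 ± 0.39). In the latter, Ts DGCs had 1.56 to 7.02 CPM of Mrps33 (median 4.23) and 2N DGCs 3.15 to 13.4 CPM (median 7.68), which overlap. No member was called lower in more than 1 comparison.

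Mrpl34, encoding the counterpart of a small bacterial large subunit protein, had the lowest LFC, -1.07 ± 0.38 in CA3 PNs of normal-diet mice (edgeR, adjusted p = 0.287). The Ts libraries ran from 1.03 to 6.61 CPM (median 3.26) and the 2N libraries from 3.67 to 11.6 CPM (median 6.18). In supplemented mice the medians of Mrpl34 in CA3 PNs were 4.75 CPM in Ts and 4.79 in 2N. Its reads are few, with a median count of 6, and 81.4% of its exon bases lie opposite a long noncoding gene.

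Mrps36 had the highest LFC, 1.54 ± 0.53 in DGCs of supplemented mice (edgeR, adjusted p = 0.26). Ts DGCs had 0.974 to 8.85 CPM of it (median 5.95) and 2N DGCs 0 to 3.51 CPM (median 1.90), on a median count over all libraries of 5. On the normal diet the ranges were 3.12 to 7.33 CPM in Ts and 0.811 to 6.64 CPM in 2N. Mrps18a, a large subunit gene despite its name, was higher in CA3 PNs of normal-diet mice by 0.50 ± 0.19, with 21.6 to 36.0 CPM in Ts (median 23.1) and 9.80 to 23.2 CPM in 2N (median 17.6). The calls of Mrpl34, Mrps36 and Mrps18a, like all 7 of Mrpl39 and Mrps6, held with any single library left out.

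The remaining calls were smaller or rested on few libraries. In CA1 PNs Mrpl18 was lower in Ts on the normal diet by LFC -0.43 ± 0.19. This call was lost in 4 of 11 fits with 1 library left out. On the supplemented diet CA1 PNs had more Mrpl41 (0.53 ± 0.21) and less Mrpl4 (-0.37 ± 0.16). Without the 2N mouse 16-90, whose library was rich in CA2 markers, the LFC of Mrpl4 was -0.29 and that of Mrps33 0.49, and neither was called. Without the Ts mouse 17-03 that of Mrpl41 was 0.43, likewise no longer called. In CA3 PNs Mrps5 (-0.38 ± 0.18) and Mrpl19 (-0.37 ± 0.18) were lower on the normal diet and Mrpl16 (0.45 ± 0.21) higher on the supplemented diet. In DGCs Mrps16 (0.68 ± 0.29) was higher and Mrpl58 (-0.51 ± 0.21), a peptidyl-tRNA hydrolase built into the large subunit, lower on the normal diet. On the supplemented diet DGCs had more Mrpl30 (0.46 ± 0.23) and less Mrpl52 (-0.70 ± 0.33). The call of Mrpl58 was lost without mouse 17-157 (-0.44), that of Mrps16 without 15-147 (0.53) or 17-153 (0.57), and that of Mrps33 in DGCs without 17-154 (-0.73) or 17-157 (-0.77). The calls of Mrpl35, Mrps5, Mrpl19, Mrpl16, Mrpl30 and Mrpl52 were each lost in 6 to 8 such fits.

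**Figure D3:**
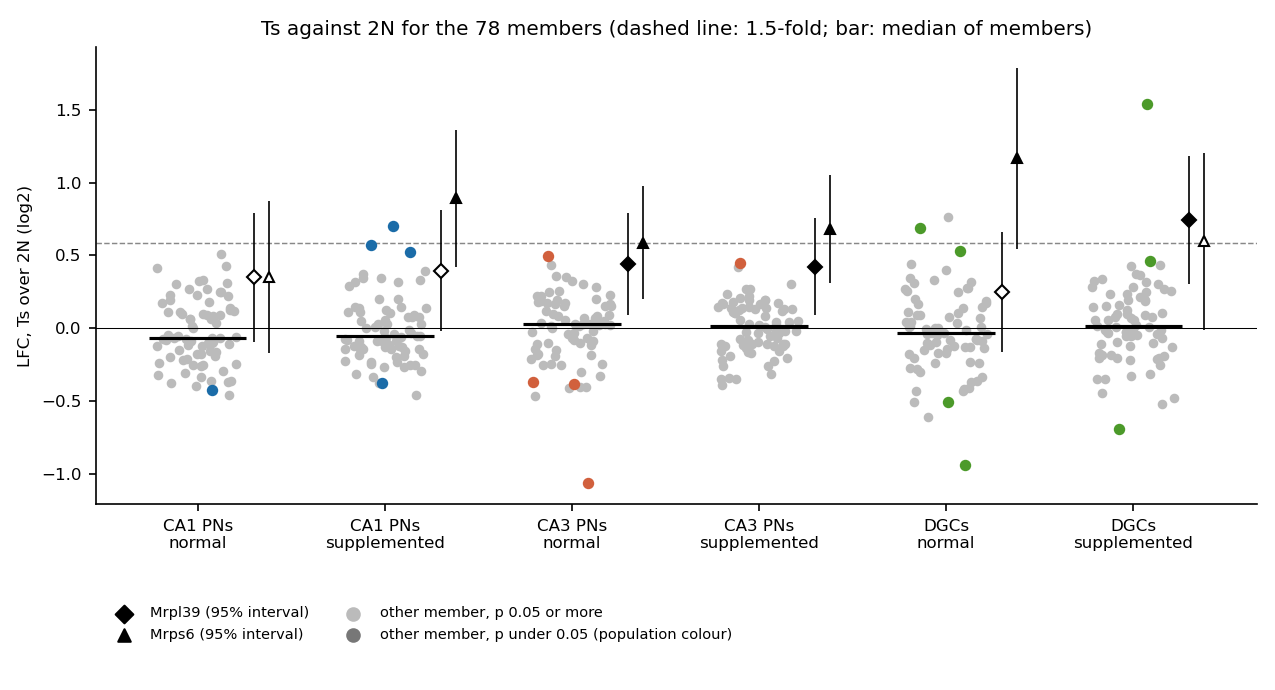
LFC (Ts over 2N, log2) of each of the 78 members in the 3 populations on each maternal diet. Coloured dots are other members with an unadjusted p under 0.05, diamonds are Mrpl39 and triangles Mrps6 (filled where the unadjusted p was under 0.05) with 95% intervals, bars are member medians and the dashed line is 1.5-fold; the medians lie between -0.07 and 0.03, and both triplicated genes are above 0 in all 6 comparisons.

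Further genes of mitochondrial translation were read from a list of 65 (23 assembly factors and ribosomal RNA enzymes, 17 translation factors, 20 mitochondrial tRNA synthetases and 5 ribosomal proteins with other symbols). Between 0 and 2 of them were called higher and between 0 and 2 lower in each genotype comparison. Of all genes between 1.78% and 4.90% were called higher and between 1.46% and 4.30% lower in these comparisons. The up to 3 with the smallest p in each comparison went in both directions. In CA1 PNs of normal-diet mice they were Tfb1m, which dimethylates the small subunit RNA (LFC 1.47 ± 0.42), Aurkaip1, a small subunit protein (-0.52 ± 0.22), and Wars2, the tryptophanyl-tRNA synthetase (0.62 ± 0.29), while none of the list was called in supplemented mice. In CA3 PNs of normal-diet mice they were Noa1, a GTPase of small subunit assembly (0.68 ± 0.21), Mtg2, a GTPase of large subunit assembly (0.82 ± 0.36), and Mtres1 (-0.46 ± 0.21), and in supplemented mice Mtrfr, a ribosome rescue factor (0.56 ± 0.24), and Dap3, a small subunit protein (0.26 ± 0.12). In DGCs of normal-diet mice the histidyl-tRNA synthetase gene Hars2 had -0.49 ± 0.21, the leucyl-tRNA synthetase gene Lars2 0.73 ± 0.29 and the ribosomal RNA methyltransferase gene Mrm1 -1.15 ± 0.55. In DGCs of supplemented mice Taco1, a translational activator, had -0.85 ± 0.33 and Mtg1, a GTPase of large subunit assembly, -0.61 ± 0.24. None passed adjustment, and the lowest adjusted p among them was 0.160 for Noa1 (edgeR).

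The maternal choline comparison asked whether supplementation changed these genes in the 6 MO offspring of each genotype. In CA1 PNs 1 member was called in 2N mice and 3 in Ts mice, where 3.35% and 3.06% of all genes tested were called in either direction. CA3 PNs had 4 and 2 (4.90% and 4.19%) and DGCs 6 and 3 (5.82% and 3.81%). The lowest adjusted p was 0.785, for Mrpl30 in 2N DGCs (edgeR), and DESeq2 gave no adjusted call either. No member was called in both genotypes of a population. Mrpl39 and Mrps6 were called in none of the 6, with LFC (supplemented over normal) between -0.51 ± 0.25 (Mrps6 in 2N CA1 PNs) and 0.14 ± 0.19 (Mrpl39 in Ts DGCs). The median LFC of all members lay between -0.04 and 0.04.

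Values for the members called by diet were as follows. In CA1 PNs Mrps2 had an LFC of 0.44 ± 0.20 in 2N mice, and Mrpl42 0.73 ± 0.27, Mrpl49 0.50 ± 0.23 and Mrpl4 -0.38 ± 0.17 in Ts mice. In CA3 PNs of 2N mice Mrpl41 had 0.43 ± 0.17, Mrps18a 0.40 ± 0.18, Mrps26 0.28 ± 0.14 and Mrpl9 -0.38 ± 0.19, and in Ts mice Mrps33 had 0.50 ± 0.22 and Mrpl27 -0.82 ± 0.38. Among the CA1 calls that of Mrpl42 held with each single normal-diet CA1 library left out. Supplemented libraries were not left out in turn for the diet comparison. In 2N DGCs Mrpl3 (0.38 ± 0.17), Mrpl49 (0.50 ± 0.23) and Mrpl52 (0.79 ± 0.36) were called higher with supplementation, and Mrpl30 (-0.57 ± 0.24), Mrps10 (-0.48 ± 0.21) and Mrps36 (-1.21 ± 0.57) lower. In Ts DGCs Mrpl1 (0.62 ± 0.21) and Mrps33 (0.78 ± 0.35) were higher and Mrpl53 (-0.59 ± 0.23) lower. Both subunits appeared in each direction.

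Tests of the difference of the genotype effect between diets called 3 members for CA1 PNs, 2 for CA3 PNs and 6 for DGCs, where 3.38%, 4.87% and 3.97% of all genes were called. In DGCs these included Mrpl52 (difference of LFC -1.09 ± 0.48), Mrpl30 (0.88 ± 0.32) and Mrps33 (1.04 ± 0.50), and in CA3 PNs Mrps18a (-0.61 ± 0.25). Tests of the difference between populations on the normal diet called 2 members for CA1 PNs against CA3 PNs, 3 for CA1 PNs against DGCs and 0 for CA3 PNs against DGCs (3.66%, 4.90% and 4.37% of all genes). No member passed adjustment in any of these tests with edgeR. The genotype and diet comparisons of a population share libraries with these tests and are not independent of them.

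Between populations some members passed adjustment over all genes. In the 6 normal-diet 2N mice, compared within mice at an adjusted p under 0.05, the CA3 to DGC comparison gave 10 members higher and 4 lower in CA3 PNs, where 21.8% and 21.5% of all 14973 genes were. In CA1 PNs against DGCs 6 were higher and 2 lower (17.3% and 16.6%). Between CA1 PNs and CA3 PNs 0 passed in either direction with edgeR, against 11.0% and 12.1% of all genes, while 8 had an unadjusted p under 0.05, limma-voom gave 1 and DESeq2 0. The lowest adjusted p in that pair was 0.0664, for Mrpl3 (edgeR). In the 2N mice each of these shares of the 78 members was below that of all genes. The 22 other mice, none of which entered the first fit, gave 25 higher and 8 lower members in CA3 PNs against DGCs (26.3% and 28.5% of all 19635 genes), 22 and 6 in CA1 PNs against DGCs (23.0% and 25.1%) and 7 and 9 in CA1 PNs against CA3 PNs (18.4% and 19.6%). Members called higher than DGCs thus outnumbered those called lower, whereas all genes were split about evenly.

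This split depended on the scaling. The CPM values of single members printed below carry the TMM scaling. With library totals in place of TMM the counts in the 2N mice were 4 higher and 8 lower for CA3 PNs against DGCs, 3 and 4 for CA1 PNs against DGCs and 3 and 0 for CA1 PNs against CA3 PNs. In the other mice they were 13 and 22, 10 and 9, and 12 and 3. Of all genes called with totals in the 2N mice, 35.7%, 38.2% and 54.8% were higher, against 33.3%, 42.9% and 100% of called members. In the other mice these shares were 33.9%, 37.7% and 60.2% of all called genes and 37.1%, 52.6% and 80% of called members. The median of all genes moved as well, from -0.05 to -0.24 for CA3 PNs against DGCs and from -0.04 to -0.18 for CA1 PNs against DGCs in the 2N mice. The member median relative to that of all genes hardly moved, being 0.14 under both scalings for CA3 PNs and 0.20 and 0.19 for CA1 PNs, and in the other mice 0.20 and 0.19 for CA3 PNs and 0.20 under both for CA1 PNs. No member named below changed direction with totals. Without the CA1 libraries rich in CA2 markers the counts for CA1 PNs against DGCs were 4 and 3 in the 2N mice and 15 and 4 in the other mice, with member medians of 0.08 and 0.14 in place of 0.16 and 0.16. Of all genes called in these fits 50.5% and 48.5% were higher, against 57.1% and 78.9% of called members. Without the CA1 libraries of mice 17-21 and 17-154 the 2N mice gave 2 higher and 4 lower for CA1 PNs against DGCs, and 15 and 3 for CA3 PNs against DGCs. There 52.7% and 52.0% of all called genes were higher, against 33.3% and 83.3% of called members. The part of the oligodendrocyte markers, which were highest in CA3 PNs, in these differences was not tested.

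The member calls recurred between the sets of mice. All 8 members called for CA1 PNs against DGCs in the 2N mice were called in the same direction among the 28 of the other mice, as were 13 of the 14 for CA3 PNs against DGCs among the 33 there. The exception was Mrpl49. Recurrence over all genes was not counted, so it cannot be read as particular to the members. Across the 78 members the LFC of the sets correlated with r = 0.68 for CA1 PNs against DGCs and 0.77 for CA3 PNs against DGCs, which is given as a description over genes, since all genes come from the same libraries. The plot of both sets shows the recurring members at its ends, where a threshold met in both sets tends to place them.

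**Figure D4:**
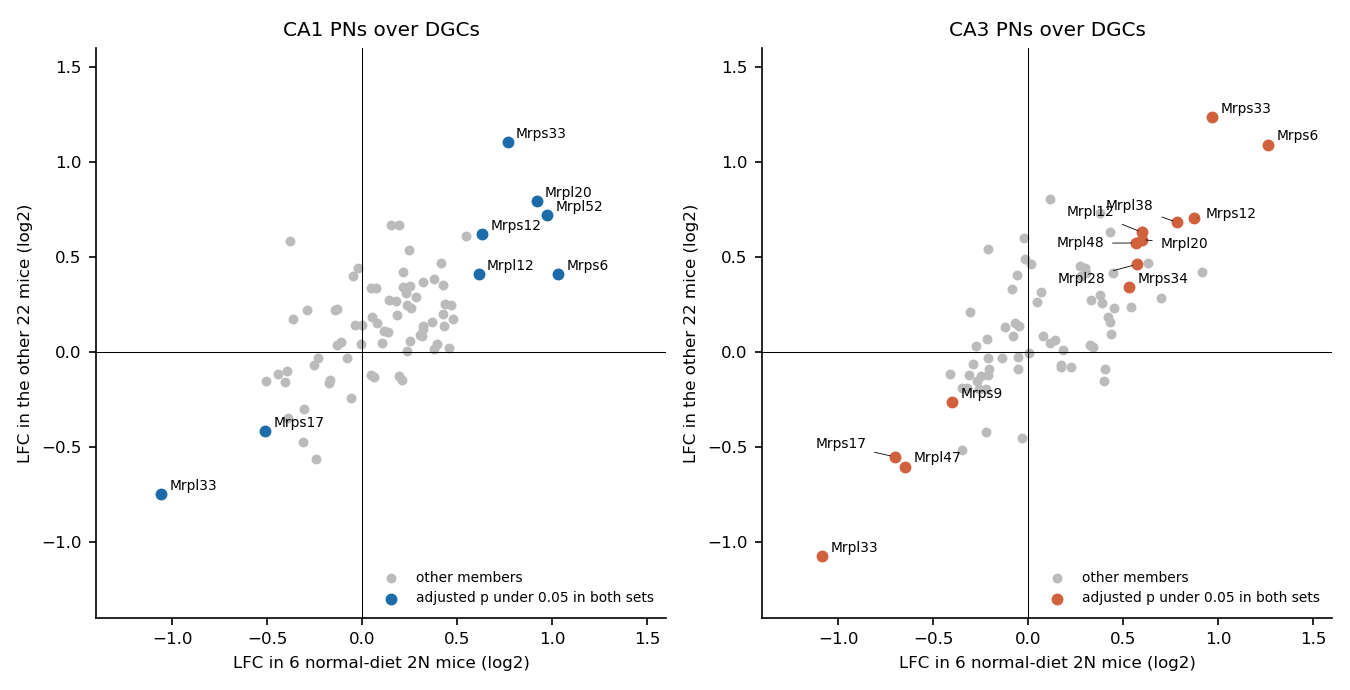
LFC (log2) of each of the 78 members for CA1 PNs over DGCs (left) and CA3 PNs over DGCs (right), with the 6 normal-diet 2N mice on the x axis and the 22 other mice on the y axis. Coloured and named dots passed an adjusted p under 0.05 in the same direction in both sets (8 on the left and 13 on the right), and Mrps33, Mrps6 and Mrpl33 lie farthest out on the right.

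Among small subunit genes Mrps6, Mrps33 and Mrps12 were higher in PNs than in DGCs. Mrps6 had an LFC of 1.26 ± 0.31 in CA3 PNs (edgeR, adjusted p = 0.00107) and 1.03 ± 0.33 in CA1 PNs (0.0145) over DGCs in the 2N mice. Its medians there were 18.3 CPM in CA3 PNs (12.6 to 22.5), 13.8 CPM in CA1 PNs (8.76 to 21.1) and 7.47 CPM in DGCs (3.15 to 14.2). It was higher in CA3 PNs in 6 of 6 mice and in CA1 PNs in 5 of 6. In the other mice the LFC was 1.09 ± 0.13 and 0.41 ± 0.14, and Mrps6 was lower in CA1 PNs than in CA3 neurons (-0.68 ± 0.13, in 17 of 19 mice).

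Mrps33 had 12.05 to 24.5 CPM in CA3 PNs of 2N mice (median 15.0), 9.36 to 23.2 CPM in CA1 PNs (median 11.8) and 3.15 to 13.4 CPM in DGCs (median 7.68). Its LFC over DGCs was 0.97 ± 0.29 for CA3 PNs and 0.77 ± 0.31 for CA1 PNs, and 1.24 ± 0.16 and 1.11 ± 0.16 in the other mice. It was lower in DGCs in every mouse with both libraries, in 6 of 6 2N mice and in 20 of 20 and 21 of 21 of the others. Mrps12, a protein of the decoding centre and the counterpart of bacterial S12, was lower in DGCs by an LFC of 0.87 ± 0.23 against CA3 PNs and 0.63 ± 0.25 against CA1 PNs, with medians of 10.9 CPM in DGCs, 16.7 in CA1 PNs and 23.4 in CA3 PNs. Mrps34 had an LFC of 0.53 ± 0.19 in CA3 PNs over DGCs with no overlap of the groups (26.02 to 29.99 against 14.2 to 23.3 CPM), but 47.8% of its exon bases are shared with Nme3 on the same strand.

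Mrps17 and Mrps9, counterparts of bacterial small subunit proteins, went the other way. Mrps17 had 21.4 to 30.04 CPM in CA3 PNs and 30.5 to 50.3 CPM in DGCs of the 2N mice, without overlap (LFC -0.70 ± 0.19, edgeR, adjusted p = 0.00211), and 22.5 to 48.1 CPM in CA1 PNs (LFC over DGCs -0.51 ± 0.19). In the other mice its LFC was -0.55 ± 0.09 and -0.41 ± 0.09. Mrps9 was likewise lower in CA3 neurons than in DGCs, with an LFC of -0.40 ± 0.16, and -0.26 ± 0.09 in the other mice.

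Of the large subunit genes, Mrpl38 had the lowest adjusted p for CA3 PNs against DGCs (0.000269, edgeR). It has no bacterial counterpart. Its 2N libraries ran from 37.4 to 54.4 CPM in CA3 PNs (median 44.2) and from 15.8 to 36.0 CPM in DGCs (median 25.5), which do not overlap (LFC 0.78 ± 0.17, and 0.68 ± 0.09 in the other mice). Mrpl20, the counterpart of a bacterial protein needed early in large subunit assembly, had the lowest adjusted p for CA1 PNs against DGCs (0.000807, edgeR), with an LFC of 0.92 ± 0.22 and medians of 34.6 CPM (CA1 PNs), 28.6 CPM (CA3 PNs) and 19.6 CPM (DGCs). Its LFC in CA3 PNs over DGCs was 0.60 ± 0.21. Mrpl12, which forms the stalk that receives translation factors, had medians of 26.1 CPM (DGCs), 41.3 CPM (CA3 PNs) and 43.5 CPM (CA1 PNs) and an LFC over DGCs of 0.61 ± 0.19 in CA1 PNs and 0.60 ± 0.18 in CA3 PNs. Mrpl48 (0.57 ± 0.19) and Mrpl28 (0.57 ± 0.23) were higher in CA3 PNs than in DGCs, and Mrpl52 (0.98 ± 0.35) was higher in CA1 PNs than in DGCs.

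Mrpl33, a short large subunit protein with a bacterial counterpart, was the member most enriched in DGCs. In the 2N mice it had 9.44 to 20.0 CPM in DGCs (median 15.5), 3.43 to 11.4 CPM in CA1 PNs (median 7.82) and 3.27 to 10.7 CPM in CA3 PNs (median 7.04). The LFC was -1.06 ± 0.33 for CA1 PNs and -1.08 ± 0.31 for CA3 PNs over DGCs, and Mrpl33 was lower in PNs in 6 of 6 mice each time. In the other mice the LFC was -0.75 ± 0.16 and -1.08 ± 0.17, with lower values in 19 of 21 and 18 of 20 mice. Mrpl47 had an LFC of -0.65 ± 0.27 in CA3 PNs over DGCs, and -0.60 ± 0.14 in the other mice. Its direction was the opposite in TPM, with medians of 12.8 TPM in the CA3 and 9.45 TPM in the DGC libraries of all mice. Mrpl3, the counterpart of a bacterial protein near the peptidyl transferase centre, was lowest in CA1 PNs in the other mice, with an LFC of -0.49 ± 0.08 against CA3 neurons and -0.56 ± 0.08 against DGCs.

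With 1 2N mouse left out at a time, the calls for CA3 PNs against DGCs of Mrpl12, Mrpl33, Mrpl38, Mrps6, Mrps12, Mrps17 and Mrps33 held in all 6 fits, as did that of Mrpl20 for CA1 PNs against DGCs. The other calls for CA3 PNs against DGCs were lost in 1 of 6 fits for Mrpl48, 2 for Mrpl20, 3 for Mrps34, 4 for Mrpl28, 5 for Mrpl49 and Mrps9 and 6 for Mrpl47. For CA1 PNs against DGCs the call of Mrpl33 was lost without mouse 17-21 (LFC -0.82), that of Mrpl12 without 17-56 (0.48) or 17-154 (0.53) and that of Mrps6 without 17-154 (0.69) or 17-172 (0.83). Those of Mrpl52, Mrps17, Mrps33 and Mrps12 were lost in 3, 4, 4 and 5 of 6 fits. With totals, Mrpl52, Mrps12 and Mrps33 lost their calls for CA1 PNs against DGCs. Mrpl12, Mrpl20, Mrpl28, Mrpl48, Mrpl49 and Mrps34 lost theirs for CA3 PNs against DGCs, with LFC between 0.34 (Mrps34) and 0.40 (Mrpl12) in place of 0.53 and 0.60.

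**Figure D5:**
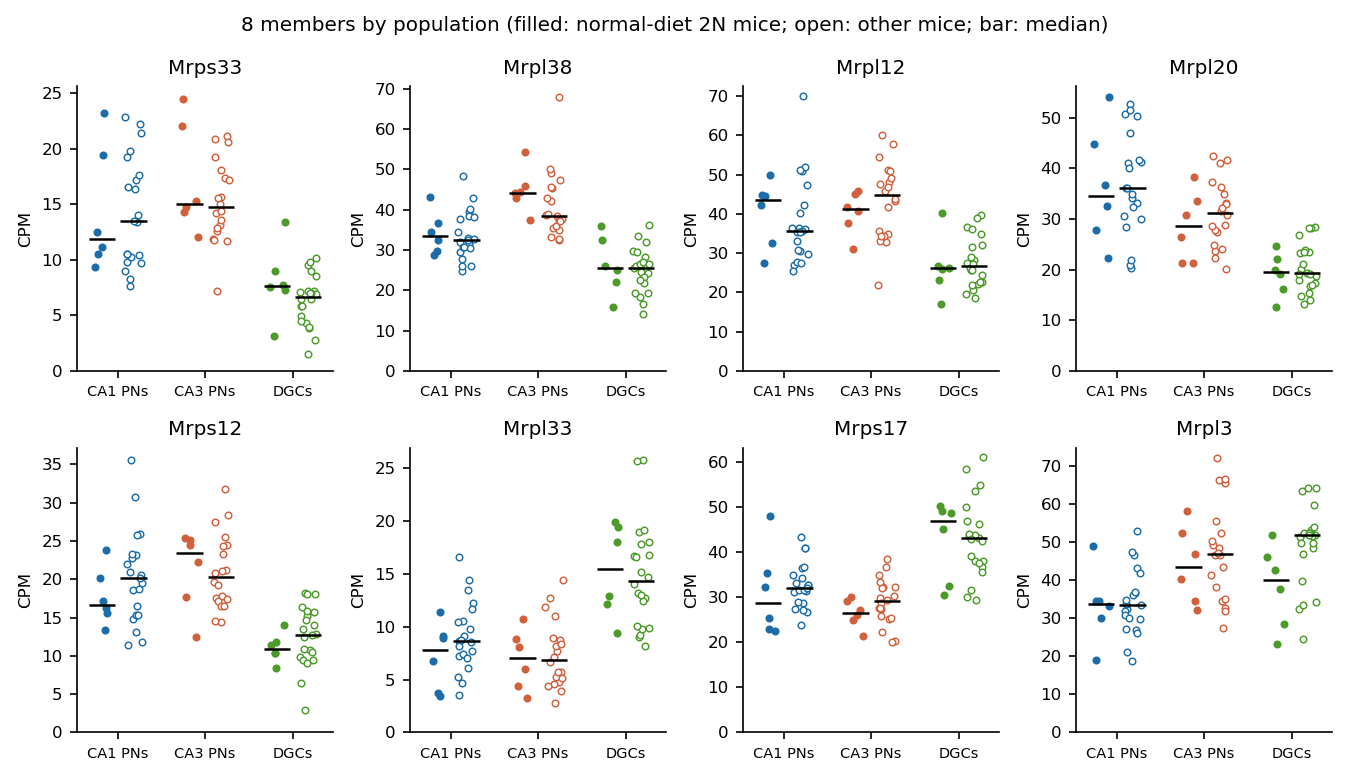
CPM (TMM scaled) of 8 members in each library by neuron population, with filled circles for the 6 normal-diet 2N mice, open circles for the 22 other mice and bars for medians. Mrps33, Mrpl38, Mrpl12, Mrpl20 and Mrps12 are lowest in DGCs, Mrpl33 and Mrps17 are highest there, and Mrpl3 is lowest in CA1 PNs.

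Both subunits held calls in both directions. Of all genes tested 21.8% were higher and 21.5% lower for CA3 PNs against DGCs in the 2N mice. In the other mice these shares were 26.3% and 28.5%. For CA3 PNs against DGCs in the 2N mice 6 large subunit genes were higher and 2 lower, and 4 small subunit genes were higher and 2 lower, with median LFC of 0.11 and -0.03. In the other mice these counts were 15 and 3 of 51 and 10 and 5 of 26, with medians of 0.14 and 0.06, and the difference between subunits was not tested. In the 2N mice the 29 members found in mitochondria only gave 5 calls, all higher in CA3 PNs. The 48 with a bacterial counterpart gave 5 higher and 4 lower. In the other mice those counts were 11 and 2 of 29 and 14 and 6 of 48, and the difference between the classes was not tested.

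Families linked to the members moved in different ways in the same fits. Of all genes tested in the 2N mice 21.8% were higher and 21.5% lower for CA3 PNs against DGCs. For CA1 PNs against DGCs these shares were 17.3% and 16.6%, and for CA1 PNs against CA3 PNs 11.0% and 12.1%. In the 2N mice 46 of 79 nuclear-encoded OXPHOS subunit genes were higher and 2 were lower for CA3 PNs against DGCs (median LFC 0.47), and 40 were higher and 0 lower for CA1 PNs against DGCs (0.43). Among 84 cytosolic ribosomal protein genes 1 was higher and 28 were lower for CA3 PNs (-0.34), and 0 were higher and 22 lower for CA1 PNs (-0.26). The member medians of 0.10 and 0.16 lay between those of the 2 families. Among the 65 other genes of mitochondrial translation, 6 were higher and 5 lower for CA3 PNs against DGCs, 2 and 1 for CA1 PNs against DGCs, and 2 and 0 for CA1 PNs against CA3 PNs. Guf1, an elongation factor homolog, was lower in CA3 PNs than in DGCs (-0.88 ± 0.17) and Noa1 higher in CA1 PNs than in CA3 PNs (0.89 ± 0.23). Guf1 was likewise higher in CA1 PNs than in CA3 PNs (0.56 ± 0.18). Lrpprc, which stabilises mitochondrial messenger RNAs, was higher in CA3 PNs than in DGCs (0.59 ± 0.13) and Wars2 lower (-1.29 ± 0.32). Gfm1, the mitochondrial elongation factor G, was higher in CA1 PNs than in DGCs (0.61 ± 0.16), and Wars2 lower (-0.87 ± 0.33).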

How the data were processed

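RNA from laser-captured neurons was made into stranded total RNA libraries. Per the labels and the study's methods, the authors checked reads with FastQC 0.11.9, trimmed them with Trimmomatic 0.39, aligned them with STAR to GRCm39 and estimated expected counts and TPM per gene with RSEM, with Picard 2.26.2 for quality measures; the labels also name mm10. The deposited expected counts (0.784% not whole) were rounded here, and the deposited TPM were used only to compare levels between genes. Every matrix column matched its library file, and replicates are separate mice.

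A gene entered a fit if it passed 0.1 CPM in 10 or more of its libraries, as in the study. Counts were scaled by TMM and tested with edgeR 4.0.16 (quasi-likelihood, robust) in R 4.3.3, on all genes, with Benjamini-Hochberg adjustment over all genes tested. All 78 members were tested in every comparison. Genotype was tested per population and diet, diet in 1 fit of 4 groups per population, and populations with the mouse as a replicate block, since the labels name the mouse and most mice gave all 3 populations; deviations of libraries of the same mouse correlated with a median r of 0.104 over 78 pairs, against -0.00311 for different mice. The covariates of the study (RNA concentration and Picard percentages) were not used here. DESeq2 1.42.0, limma-voom (limma 3.58.1), library totals, no filter, each library left out and the doubtful libraries left out were alternatives, the last added after the data were seen. The code was tested on simulated data.

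The members and gene lists were chosen with earlier results of these data known. Named were Mrpl39 and Mrps6, up to 5 called members per direction in each genotype and diet comparison, up to 6 per direction in each population comparison of 2N mice, the 5 highest and 5 lowest by TPM, members called the same way in 2 or more genotype comparisons, and up to 3 genes of the other mitochondrial translation list per genotype comparison and per population comparison of 2N mice, by smallest p. Members named beyond this rule (Mrpl28, Mrps34, Mrpl49 and Mrpl3 between populations, those of the tests of differences, and Mrps11 and Mrpl46 for their promoters) were chosen after their values were seen. Exons of 8 members overlap another gene on the same strand and those of 57 a gene on the opposite strand. The 6 Mrpl and Mrps pseudogenes held at most 90 counts each over all libraries. Counts limit precision as the SE given by count class shows. The result of 1 gene of the other mitochondrial translation list that the rule named is not reported here.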

Additional observations from a re-analysis of the deposited data

Results flagged for a closer look

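In 81 groups of 4 to 10 libraries tested for a sample far from the rest, where chance flags about 1 in 20, 3 values were far out by Dixon's test. Mrpl48 in DGCs of normal-diet 2N mice was 7.77 CPM in mouse 15-145, with the next library at 18.9 CPM and the highest at 25.2. Mrpl52 in normal-diet 2N mice was far out in mouse 17-56 in both populations, with 1.63 CPM in CA3 PNs (next 9.76 CPM) and 11.4 CPM in DGCs (next 6.47 CPM). The CA3 library of that mouse was the shallowest of its group (625250 counts).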

How the results depend on the processing

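Counts of called members moved by over 1.5 times under these settings. For genotype in normal-diet CA1 PNs (1 call) the count was 2 without the CA1 libraries of mice 17-21 and 17-154, 3 without CA1 libraries rich in CA2 markers, and 0 with DESeq2, without the filter or with totals. Of all 12286 genes, 219 were higher and 244 lower in the main fit. Without those mice these were 380 and 373, and without libraries rich in CA2 markers 345 and 414. DESeq2 gave 175 and 184, totals 312 and 136, and no filter 499 and 585 of 22655 genes. For genotype in normal-diet DGCs (5) limma-voom gave 8. Of all 13442 genes limma-voom called 631 higher and 549 lower there, against 617 and 525 with edgeR. For diet in 2N CA1 PNs (1) the count was 2 without either set of CA1 libraries or with totals and 0 with only the compared groups in the fit, and in 2N CA3 PNs (4) that fit gave 2. Of all 16226 genes in CA1 PNs 543 were called in the main fit. Without the sets of CA1 libraries 521 were higher and 365 lower, and 412 and 461. Totals gave 334 and 196, and only the compared groups 151 and 139 of 12943 genes. In CA3 PNs 820 of 16721 genes were called, and in that fit 261 and 297 of 13684. For genotype by diet in CA1 PNs (3) the member count was 1 without mice 17-21 and 17-154. Of all 16226 genes 549 were called in the main fit, and 292 higher and 311 lower without those mice. For 2N CA1 PNs against CA3 PNs (0) the member count was 1 without those mice, 3 without libraries rich in CA2 markers, 2 without the CA3 library of 15-145, 1 with limma-voom and 3 with totals. Of all 14973 genes 1640 were higher and 1819 lower in the main fit. In the order of these settings they were 1892 and 2199, 1900 and 2171, 1506 and 1556, 1766 and 1850, and 1893 and 1563. DESeq2 gave 5 in place of 8 for CA1 PNs against DGCs and 9 in place of 14 for CA3 PNs against DGCs. Over all genes it gave 2390 higher and 2279 lower in place of 2590 and 2479, and 2882 and 3033 in place of 3261 and 3219. Genotype by population gave 7 in place of 2 (CA1 PNs against CA3 PNs) and 1 in place of 0 (CA3 PNs against DGCs) without the CA3 library of 15-145. Of all 17854 genes 654 were called for CA1 PNs against CA3 PNs, and 352 higher and 339 lower without that library. For CA3 PNs against DGCs 780 were called, and 338 higher and 388 lower without it. The cause of these shifts was not tested. Without the replicate block the counts in 2N mice were 6 higher and 2 lower for CA1 PNs against DGCs, 9 and 3 for CA3 PNs against DGCs and 0 and 0 for the PNs, and genotype by population (CA1 PNs against CA3 PNs) gave 1. In the difference between diets Mrpl39 changed sign around 0 in CA1 PNs (0.05, and -0.0036 without mice 17-21 and 17-154, -0.0243 without libraries rich in CA2 markers and -0.0536 with totals) and in CA3 PNs (-0.01, and 0.0415 with 15-145 by its own label). With single libraries left out counts ran from 0 to 3, 2 to 7, 4 to 7, 2 to 6, 5 to 7 and 3 to 8 for genotype in the order of the report. For diet in CA1 PNs of 2N and Ts mice, where only normal-diet libraries were left out, they ran from 1 to 3 and 1 to 4. With single normal-diet 2N mice left out they ran from 0 to 2, 4 to 7 and 8 to 13 for CA1 PNs against CA3 PNs, CA1 PNs against DGCs and CA3 PNs against DGCs. For the fits with single libraries or mice left out the counts over all genes are not given, so these ranges cannot be read as particular to the members.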
